A study of Mus musculus with 54 samples.

Results

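Of the 38363 entries in the expression table of retinoic acid (RA) treated mouse embryonic stem (ES) cells, 341 carry the name of a solute carrier (Slc) gene. The 166 described here are those whose mean over the 8 libraries of that table was at least 2 FPKM (a read density scaled to gene length and to the mapped reads of each library). They were thus chosen by their measured level. In 149 of them the mean also reached 2 FPKM in each of the 4 groups of libraries, in 8 it did so in 3 groups (Slc1a3, Slc17a7 and Slc25a35 among them) and in 9 in 2 groups. The 9 (Slc4a9, Slc24a3, Slc25a21, Slc27a2, Slc30a4, Slc38a3, Slc39a8, Slc40a1 and Slc44a3) entered through the day at which they are high, so that a difference between the days was built into their choice. Just inside the limit lay Slc27a2 at 2.07 FPKM, Slc30a4 at 2.13 and Slc16a14 at 2.29, and just outside it Slc25a32 at 1.87 and Slc4a4 and Slc25a47 at 1.90 each. Of the 166, 5 share the name only and transport nothing themselves (Slc9a3r1, Slc9a3r2, Slc7a6os, Slc4a1ap and Slc2a4rg-ps).

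The study asks how the long noncoding RNA Haunt and its locus act on the HOXA genes while ES cells differentiate. All RA libraries come from 46C cells, a line of strain 129/Ola with GFP in Sox1. The cells were kept for a day in serum-free N2B27 medium with LIF and 2 inhibitors, then passaged without these into 2 µM RA, and harvested at days 2 and 4. The groups are wild type (WT; libraries WT-1 and WT-2) and cells with a 58 kb deletion at Haunt (58 kb KO; KO-i and KO-j), with 2 libraries for each genotype and day and no untreated library in that table. The labels do not say whether KO-i and KO-j are separate clones, nor whether the 2 libraries of a group were grown separately, so p-values rest on a spread that may be technical. The other table followed WT ES cells in serum after withdrawal of LIF, the cytokine that keeps ES cells undifferentiated. Its columns for days 0, 2 and 6 are means, made by the authors from 3, 2 and 3 libraries of the lines CJ7 and JF4 (129S1/SVImJ) and J1 (129S4/SvJae), in differing mixtures, and day 4 is 1 library of CJ7. Single libraries of strain 129/Ola complete it. They are mesendoderm (ME), sorted as GFP-positive after 6 days without LIF from a line with GFP in T, neural progenitors (NPC), sorted as GFP-positive from 46C after 6 days in N2B27, and neural stem cells (NSC), such sorted cells expanded to passage 15 in EGF and FGF-2.

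Solute carriers are membrane proteins that move small molecules across the plasma membrane or the membranes of organelles, mostly by facilitated diffusion or by coupling to the gradient of an ion. They bring glucose and amino acids into the cell, carry lactate out, set ion and pH balance, distribute zinc, iron and copper, and, as the Slc25 carriers, link the matrix of mitochondria to the cytosol. ES cells are known for high glucose uptake and lactate output and for a large demand for glutamine, which makes the transporters of these substrates of interest when they leave pluripotency.

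By the family of each gene, 34 members are mitochondrial carriers, 29 carry amino acids, 23 metals and 22 ions such as bicarbonate, protons, calcium or chloride. Of the others, 13 carry lipids or organic ions, 12 vitamins, choline or nucleosides, 10 sugars, 9 carboxylates or phosphate and 9 nucleotide sugars or related molecules of the secretory pathway. The members' mean levels ranged from 2.07 to 465 FPKM with a median of 9.37, and 7 lay above 100 FPKM. These were the glucose carriers Slc2a1 (465) and Slc2a3 (228), the mitochondrial phosphate carrier Slc25a3 (228), the adenine nucleotide carriers Slc25a4 (227) and Slc25a5 (225), which exchange ATP for ADP, Slc25a39 (152), a mitochondrial carrier required for glutathione in the matrix, and Slc1a5 (120.0), the main glutamine carrier of many dividing cells. Next in order stood Slc7a5 (81.6), Slc39a7 (75.6), Slc3a2 (74.1), Slc29a1 (63.5) and Slc25a11 (56.5).

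The order changed between the days. At day 2 the sum over the 166 members was 4563 and 4548 FPKM (WT) and 3727 and 4403 (58 kb KO), of which Slc2a1 alone made up 15.5% to 23.1%. At day 4 the sum was 3479.7 and 3477 (WT) and 3331 and 3405 (58 kb KO), and the share of Slc2a1 was 3.21% to 3.81%. Slc2a1, Slc2a3 and Slc25a5 were the 3 highest members in each day 2 library, and Slc25a4, Slc25a3 and Slc25a5 in each day 4 library.

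Markers placed the RA cells between states. Of 8 pluripotency genes tested, 6 fell and 1 (Klf4) rose from day 2 to day 4, with Pou5f1 at 120.1, 154, 53.6 and 111 FPKM at day 2 (WT-1, WT-2, KO-i, KO-j) and 21.2, 22.0, 11.4 and 25.2 at day 4. Of 12 markers of extraembryonic endoderm, 11 rose, and their summed level went from 106 to 155 FPKM at day 2 to 995 and 1009 (WT) and 533 and 554 (58 kb KO) at day 4. Most of the day 4 sum was Col4a1 (563 and 589 in WT, 273 and 328 in 58 kb KO) and Lama1 (228 and 185, 155 and 110). Of 7 neural markers tested, 3 rose, among them the progenitor genes Pax6 (1.06) and Nes (1.34), and 2 fell, the neuronal genes Tubb3 (-1.95) and Elavl3 (-0.77), while Sox1 and Map2 did not pass (-0.53 and 0.28). In such bulk samples fewer cells of a type and less RNA per cell cannot be told apart. The part of these shifts in the results on members was not tested. In the other table T stood at 192 FPKM in ME but also at 204 at day 4 after LIF withdrawal, so it did not set ME apart. The radial glia marker Fabp7 stood at 225 in NPC and 1227 in NSC. Sox1 read 21.8 in NPC but 0.910 in NSC, and the astrocyte marker Gfap 0.117 in NSC. Gm15055, the listed name of Haunt, read 128 and 142 FPKM in WT at day 2 and 31.8 and 40.6 at day 4. In 58 kb KO it read 1.13 (KO-i) and 0 (KO-j) at day 2, then 3.08 and 0.447. From the steps between low values the RA libraries hold about 9.04 to 16.4 M reads, with KO-i at day 2 the shallowest.

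From day 2 to day 4 of RA, the glucose carriers Slc2a1 and Slc2a3, the lactate carrier Slc16a3 and the glutamine carrier Slc1a5 were among the 5 members that fell most. Other carriers of glucose or lactate did not pass or rose. Metal, amino acid and ion carriers made up most of the members that rose. Differences are on the log2(FPKM + 1) scale, which understates the change of low genes, and were tested with limma over the 15705 genes that reached 1 FPKM in 2 or more of the 8 libraries, which by their level include all 166 members, with p-values adjusted by Benjamini-Hochberg and called under 0.05. For the mean of both genotypes, 52 of the 166 members (31.3%) rose and 24 (14.5%) fell, beside 21.7% and 17.5% of all genes tested. Of the 12568 genes with a mean of at least 2 FPKM, the limit used for the members, 23.9% rose and 17.3% fell. Of the 149 members that reached 2 FPKM in each group, 43 (28.9%) rose and 21 (14.1%) fell. The share of all genes under that same limit was not counted, so these shares have no matched background. In classes beside the metals, 10 of 27 such amino acid carriers rose and 3 fell, 7 of 18 ion carriers rose and 3 fell, and 9 of 32 mitochondrial carriers rose and 3 fell. The median difference was 0.13 over the members and 0.04 over all genes tested. Among the called members all 4 day 4 libraries lay above all 4 day 2 libraries in 44 and below them in 20, and in the other 12 the days overlapped. Leaving out 1 library at a time gave 62 to 76 called members, and 59 of the 76 passed in each of these 8 fits.

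**Figure D1:**
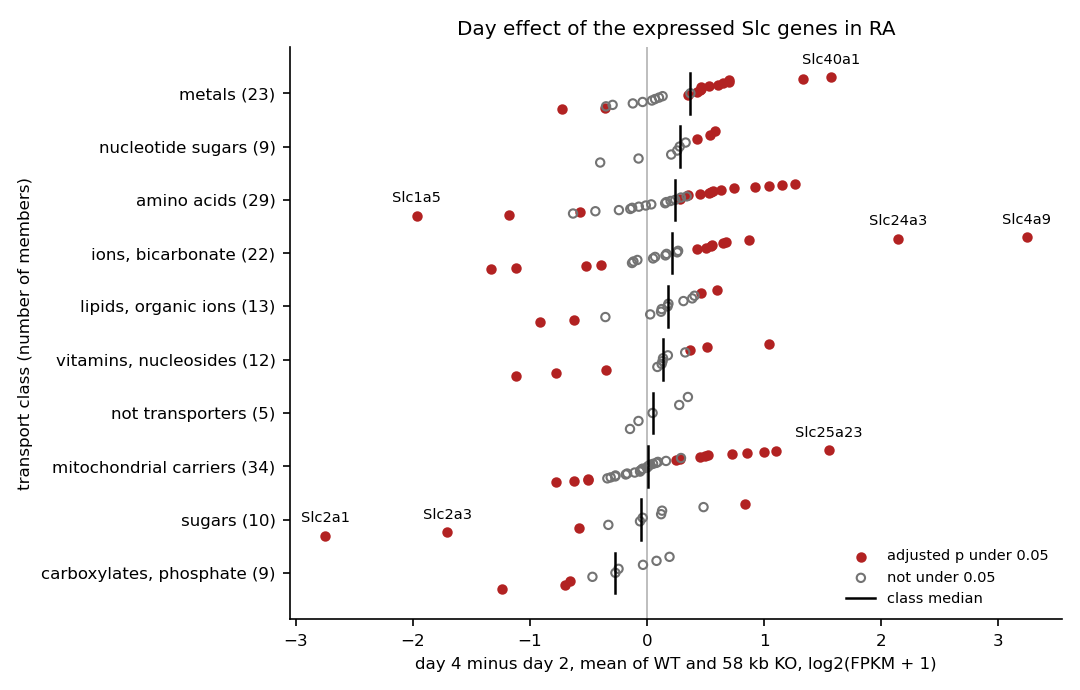
Difference between day 4 and day 2 of RA for each of the 166 members, as the mean of both genotypes on the log2(FPKM + 1) scale (x axis), by transport class (y axis, number of members in brackets). Filled points passed limma's adjusted p under 0.05, open points did not, and the black bars are class medians, which run from -0.27 for carboxylates and phosphate to 0.37 for metals.

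Glucose enters mammalian cells mainly through the Slc2 family, and lactate leaves through the Slc16 family. Slc2a1 (NM_011400, mm9 chromosome 4, 118781350 to 118809934), the widespread glucose carrier also called GLUT1, read 1055 and 823 FPKM (WT) and 578 and 798 (58 kb KO) at day 2. At day 4 it read 118 and 112 (WT) and 111 and 129.7 (58 kb KO). The days did not overlap, and the lowest library of day 2, KO-i, was still well above the highest of day 4. The mean level at day 2 was 6.92 times that at day 4, and the difference of -2.75 (SE 0.13, limma adjusted p = 5.9e-05) was the largest fall among the members. Slc2a3 (NM_011401, chromosome 6, 122677827 to 122692763), the high-affinity glucose carrier GLUT3, stood at 366 and 427 FPKM (WT) and 244 and 362 (58 kb KO) at day 2, and at 108, 121, 83.8 and 108 at day 4. It fell by 1.71 (SE 0.14, limma adjusted p = 2.7e-04), again with no overlap between the days. Slc2a4, the carrier that insulin moves to the surface of muscle and fat cells, and the intracellular Slc2a8 did not pass, at 0.12 and -0.04.

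Slc16a3 (NM_001038653, chromosome 11, 120810381 to 120820314), the lactate exporter MCT4, read 35.5, 36.6, 17.1 and 21.4 FPKM at day 2 (WT-1, WT-2, KO-i, KO-j) and 12.0, 15.1, 7.13 and 9.49 at day 4. All 4 values of day 4 lay below all 4 of day 2, and both knockout libraries lay below both WT libraries at each day. The fall was 1.24 (SE 0.12, limma adjusted p = 4.6e-04). Slc16a1, the MCT1 carrier that moves lactate and pyruvate in both directions, lay between 14.3 and 26.1 FPKM in the 8 libraries and did not pass (0.19, limma adjusted p = 0.26). Among the other members of this family Slc16a6 (-0.70) and Slc16a13 (-0.66) fell as well, so that of the 9 members in the class of carboxylates and phosphate 3 fell and 0 rose. Of the 10 sugar carriers 3 fell, the third being Slc45a4 (-0.58), and 1 rose, Slc5a2 (0.84), the sodium-coupled glucose carrier of the kidney. Its span overlaps BC017158 on the other strand over 1055 bases, and no strand-marking step is named for these libraries.

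In a list of glycolytic and lactate enzymes, 4 of 9 tested genes fell and 0 rose. These were Hk2 (-0.65), a hexokinase that traps glucose in the cell, Pfkp (-1.94), a phosphofructokinase, Pkm (-0.57), the pyruvate kinase, and Ldha (-0.47), which makes lactate. Gpi1, Hk1, Ldhb, Pdk1 and Pgk1 did not pass and lay between -0.11 and 0.16. Bsg, the chaperone that brings Slc16a1 and Slc16a3 to the membrane, and Emb, a related chaperone, rose by 0.56 and 0.54 (limma adjusted p = 0.00178 and 0.00439). The carriers Slc2a1, Slc2a3 and Slc16a3 thus differed in direction from the chaperones of the lactate carriers.

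Promoters of the glucose and the lactate carrier that fell are shown because they hold matches to the core of the hypoxia response element, through which both genes are known to be regulated. The window is 250 bases before to 50 after the RefSeq start, with matches to ACGTG or GCGTG on either strand in capitals. Slc2a1 lies at chr4:119108495-119108794 and Slc16a3 at chr11:120948817-120949116, both in GRCm38.p6 on the + strand.
Slc2a1: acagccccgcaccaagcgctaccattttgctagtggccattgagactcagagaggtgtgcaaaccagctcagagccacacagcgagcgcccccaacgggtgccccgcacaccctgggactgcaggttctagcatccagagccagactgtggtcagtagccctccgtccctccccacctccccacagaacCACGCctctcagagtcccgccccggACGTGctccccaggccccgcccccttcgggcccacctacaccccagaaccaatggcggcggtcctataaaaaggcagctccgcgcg
Slc16a3: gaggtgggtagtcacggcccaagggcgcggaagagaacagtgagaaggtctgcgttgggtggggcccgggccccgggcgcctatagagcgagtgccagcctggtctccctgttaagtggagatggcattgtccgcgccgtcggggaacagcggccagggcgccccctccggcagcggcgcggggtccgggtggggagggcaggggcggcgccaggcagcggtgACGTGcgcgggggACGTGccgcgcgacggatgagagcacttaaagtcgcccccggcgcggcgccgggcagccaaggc
Each window holds 2 matches. RefSeq windows matched 121 of the 166 members by symbol, and 71.9% of these have a match, against 46.7% of all 27025 genes with a window. The share was 71.4% for the 42 members with a window that rose and 73.3% for the 15 that fell, so the matches did not separate the directions. A match to 5 letters is a description of the sequence and no measured binding site.

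**Figure D2:**
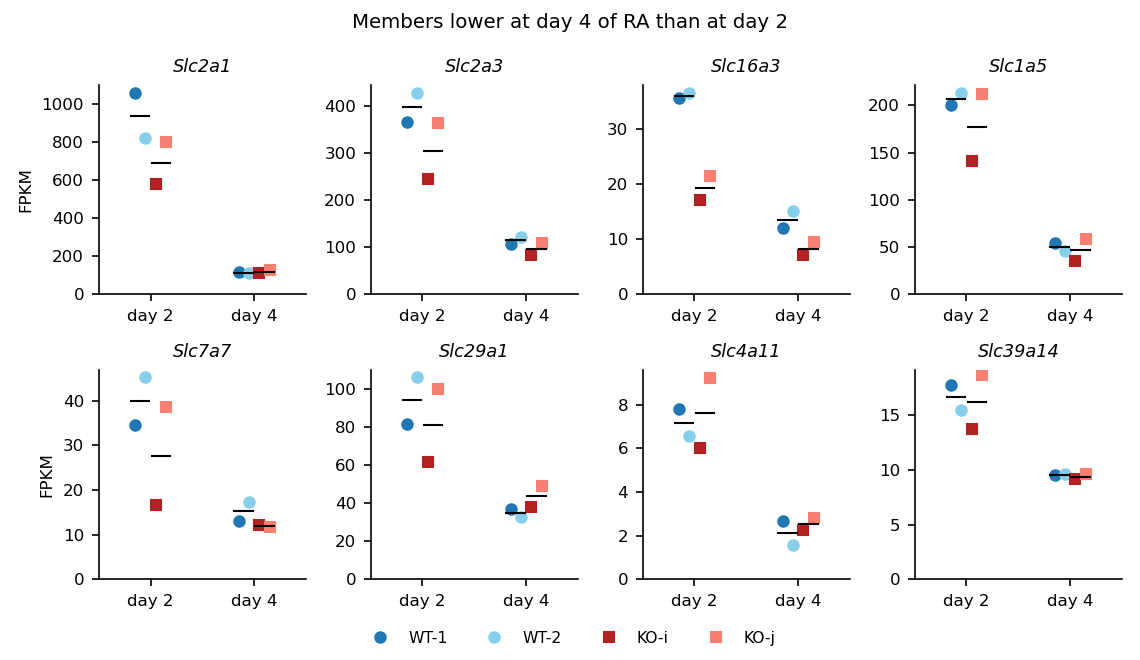
FPKM (y axis) of 8 members in the RA libraries at days 2 and 4 (x axis), with circles for WT-1 and WT-2, squares for KO-i and KO-j, and black bars for the means of 2 libraries. In Slc2a1 the day 2 libraries lie between 578 and 1055 FPKM and the day 4 libraries between 111 and 129.7.

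Amino acid carriers split. Of 29 members 12 rose, 3 fell and 14 did not pass, with a median difference of 0.24. Slc1a5 (NM_009201, chromosome 7, 17366695 to 17383623), the glutamine carrier ASCT2, read 200.0, 213, 141 and 212 FPKM at day 2 (WT-1, WT-2, KO-i, KO-j) and 54.1, 46.2, 35.04 and 58.2 at day 4. The mean at day 2 was 3.96 times that at day 4, with no overlap, and the difference was -1.97 (SE 0.18, limma adjusted p = 3.5e-04). Slc7a7, a light chain that exports cationic amino acids, went from 34.5 and 45.3 (WT) and 16.6 and 38.7 (58 kb KO) to 13.1, 17.4, 12.2 and 11.7, a fall of 1.18 (SE 0.24, limma adjusted p = 0.00792). Here KO-i at day 2 lay within the range of the day 4 libraries. Slc7a7 overlaps the end of Oxa1l on the other strand over 228 bases. The creatine carrier Slc6a8 was the other member that fell (-0.58).

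The glutamate carrier Slc1a3 and the glycine carrier Slc6a9 were among those that rose. Slc6a9 (NM_008135, GLYT1) read 4.00 and 4.63 FPKM (WT) and 3.40 and 3.44 (58 kb KO) at day 2, and 14.3 and 10.9 (WT) and 7.41 and 7.86 (58 kb KO) at day 4. It rose by 1.16 (SE 0.11, limma adjusted p = 4.2e-04), and at day 4 both knockout libraries lay below both WT libraries. Slc1a3, the glial glutamate carrier GLAST, followed the same order, with 2.16, 3.22, 1.74 and 2.01 FPKM at day 2 in WT-1, WT-2, KO-i and KO-j and 7.17, 7.85, 3.70 and 4.86 at day 4 (1.04, SE 0.14, limma adjusted p = 0.00137). Slc38a3, a glutamine carrier of liver, kidney and astrocytes, read 1.28 and 1.27 (WT) and 2.53 and 1.28 (58 kb KO) at day 2 and 6.43, 6.96, 3.45 and 4.28 at day 4 (1.27). It entered the set through its day 4 level. Of the 9 members of the Slc38 family, which take up small neutral amino acids, 5 rose, Slc38a3 included, and 0 fell. The widely expressed Slc38a2 (0.53) and Slc38a1 (0.28) were among those that rose. Both members of the Slc36 family, which move amino acids out of lysosomes or into the cell with protons, rose, Slc36a4 by 0.92 and Slc36a1 by 0.35. Slc7a6, whose product pairs with Slc3a2 to exchange cationic for neutral amino acids, rose by 0.55.

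Slc7a5 and its partner Slc3a2 stood at high levels at both days. Slc7a5, the light chain LAT1 that takes up leucine and other large neutral amino acids, lay between 61.9 and 105 FPKM in the 8 libraries, and its heavy chain Slc3a2 between 65.6 and 88.1. Neither passed (0.04 and -0.13, limma adjusted p = 0.83 and 0.29). Nor did the cystine carrier Slc7a11, which feeds glutathione synthesis, at 3.73 to 6.19 FPKM (-0.14), or the taurine carrier Slc6a6 (-0.01). In a list of genes of the amino acid response, which is switched on when amino acids run short, 5 of 12 rose, among them Chac1 (1.05) and Sesn2 (0.90), and 2 fell, Shmt2 (-0.58) and Asns (-0.51). Its core motif TGATGNAA was found in the windows of 5 of the 121 members (4.13%) and of 4.51% of all genes. Of 5 genes of glutamate use, the glutamine synthetase Glul rose by 0.89 and Glud1 and Got1, which feed glutamate carbon into the citrate cycle or aspartate, had differences of -1.28 and -0.86 and passed.

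Of the 23 carriers of zinc, copper, iron and other metals 12 rose and 2 fell, with a median of 0.37. Slc40a1, Slc39a8 and Slc30a4 entered the set through their day 4 level, and among the 20 that reached 2 FPKM in each group 9 rose and 2 fell, with a median of 0.24. Slc40a1 (NM_016917, chromosome 1, 45964915 to 45982439), ferroportin, the known exporter of iron from cells, read 0.608 and 1.11 FPKM (WT) and 2.44 and 0.999 (58 kb KO) at day 2 and 6.98, 6.87, 4.86 and 3.89 at day 4. It rose by 1.57 (SE 0.20, limma adjusted p = 0.00104), by 2.11 in WT and 1.03 in 58 kb KO. Slc39a8 (NM_001135149, chromosome 3, 135488621 to 135551536), which brings zinc and manganese into the cell, stood at 0.685 to 1.09 FPKM at day 2 and at 4.27, 4.00, 4.01 and 2.87 at day 4 and rose by 1.33 (SE 0.14, limma adjusted p = 6.0e-04).

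The other 10 metal carriers that rose did so by at most 0.70. Slc39a7, the carrier that releases zinc from the endoplasmic reticulum, was the highest of them and read 59.1, 56.5, 55.2 and 58.0 FPKM at day 2 and 92.3, 87.3, 108 and 89.1 at day 4 in WT-1, WT-2, KO-i and KO-j. Its day 4 libraries all lay above its day 2 libraries (0.70, SE 0.08, limma adjusted p = 6.5e-04). Slc39a1, a zinc importer of the plasma membrane, rose by 0.60, and both copper carriers rose, Slc31a1, the main copper importer, by 0.42 and Slc31a2 by 0.53. Slc30a1, the zinc exporter ZnT1 of the plasma membrane, rose by 0.35 (limma adjusted p = 0.025), with 4.19 to 6.03 FPKM at day 2 and, overlapping, 5.58 to 8.48 at day 4. Its call was lost in 7 of the 8 fits that left out a library, with adjusted p from 0.0573 to 0.0805, all except that without KO-j at day 4. Slc39a14, which imports zinc and iron that is not bound to transferrin, fell, with 13.7 to 18.7 FPKM at day 2 and 9.14 to 9.65 at day 4 (-0.72, limma adjusted p = 0.00242). Slc39a10, another zinc importer, was the second that fell (-0.36), while Slc11a2, the iron importer DMT1, did not pass (0.10).

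The promoter of Slc30a1 is shown because it is a known target of the zinc sensor MTF1. It lies at chr1:191906531-191906830 (GRCm38.p6, + strand), and capitals mark matches to the metal response core TGCNCNC, both of them on the opposite strand.
Slc30a1: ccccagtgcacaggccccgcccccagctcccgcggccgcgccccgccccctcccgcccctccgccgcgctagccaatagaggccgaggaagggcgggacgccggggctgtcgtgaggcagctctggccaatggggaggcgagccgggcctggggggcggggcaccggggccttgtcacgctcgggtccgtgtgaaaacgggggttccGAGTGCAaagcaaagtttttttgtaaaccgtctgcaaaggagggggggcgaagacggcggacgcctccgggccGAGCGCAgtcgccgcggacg
The window holds 2 matches. This short core is common, with a match in 62.8% of the 121 members and in 53.6% of all genes. The share was 71.4% for the 42 members with a window that rose and 60.0% for the 15 that fell. In the list of zinc and iron handling genes, 5 of 11 tested genes fell and 1 rose. Mt2, a metallothionein that binds zinc and is itself a target of MTF1, fell by 1.03 and Mt1 had -0.48 (limma adjusted p = 0.012 and 0.19). The ferritin chains Fth1 (-0.42) and Ftl1 (-0.61), which store iron, fell too, as did the iron reductase Steap3 (-1.59). Some zinc and iron carriers thus rose while Mt2 and the ferritin chains fell. The picture was mixed, as the importers Slc39a14 and Slc39a10 fell and the metallothioneins Mt1 and Mt3 did not pass. For Slc40a1 and Slc39a8 the rise was built into their choice.

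Mitochondrial carriers had a median difference of 0.01, and 10 of 34 rose and 4 fell. Slc25a23 (NM_025877, chromosome 17, 57183134 to 57199286), a calcium-regulated carrier that exchanges ATP-Mg for phosphate, read 15.5 and 13.4 FPKM (WT) and 20.5 and 14.1 (58 kb KO) at day 2 and 47.7, 58.6, 43.2 and 43.8 at day 4. The mean rose 3.05-fold with no overlap between the days (1.56, SE 0.13, limma adjusted p = 2.6e-04). Gm17168, on the other strand within its span, averaged 9.86 FPKM, and reads of the overlap cannot be told apart. Slc25a24, a paralog of the same function, rose by 1.00, with 2.63 to 3.73 FPKM at day 2 and 6.48 to 7.51 at day 4. Slc25a21, the carrier of oxodicarboxylates, entered the set through its day 4 level and rose by 1.10. The third ATP-Mg carrier among the members, Slc25a25, did not pass (-0.05).

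The adenine nucleotide carriers moved in opposite directions. Slc25a4, the form of heart and muscle, read 199, 194, 157 and 204 FPKM at day 2 (WT-1, WT-2, KO-i, KO-j) and 278, 298, 231 and 258 at day 4 (0.50, SE 0.09, limma adjusted p = 0.00524). Slc25a5, the form of dividing cells, read 269.6, 287, 233 and 268 and then 210.3, 185, 157 and 193 (-0.51, SE 0.09, limma adjusted p = 0.00486). Slc25a5 was the higher of the pair in each day 2 library and Slc25a4 in each day 4 library. The sequences of these paralogs are close and their pseudogenes many, so how shared reads were assigned could shift both values. Slc25a1, the citrate exporter that supplies lipid synthesis, fell by 0.63 (limma adjusted p = 8.2e-04), and Slc25a35, an orphan carrier, by 0.78. Slc25a11, the oxoglutarate-malate carrier of the malate-aspartate shuttle, rose by 0.52. Slc25a12, the aspartate-glutamate carrier of the same shuttle, had 0.28 for the mean of the genotypes (limma adjusted p = 0.0378), made up of -0.06 in WT and 0.63 in 58 kb KO (limma adjusted p = 0.76 and 0.0176). Its limma adjusted p was 0.0561 to 0.124 without any 1 library except KO-j at day 4, the one whose removal kept the call. Slc25a3 did not pass (0.02), and nor did Slc25a39 (-0.27).

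Slc4a9 (NM_001271544), a bicarbonate carrier known from kidney intercalated cells, showed the largest rise of all members. Like Slc24a3, the next in order, it entered the set through its day 4 level, so a rise was built into the choice of both. It read 0.575 and 0.885 FPKM (WT) and 1.94 and 1.17 (58 kb KO) at day 2 and 26.4 and 49.2 (WT) and 6.61 and 13.6 (58 kb KO) at day 4. The difference was 3.24 (SE 0.27, limma adjusted p = 2.5e-04). In the other table its highest value was 0.146 FPKM, in ME, and it was listed at 0 in LIF day 6, NPC and NSC. Slc24a3 (NM_053195, chromosome 2, 145068347 to 145467675), a sodium-calcium-potassium exchanger, went from 0.168, 0.260, 0.964 and 0.398 FPKM to 5.48, 3.85, 6.96 and 5.21 (2.15, SE 0.18, limma adjusted p = 2.4e-04). Unlike in Slc4a9, the 4 libraries of day 4 in Slc24a3 lay close together across the genotypes.

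Of the 22 ion carriers 9 rose and 4 fell. Slc4a2, a widespread chloride-bicarbonate exchanger, rose by 0.87 and Slc12a4, a potassium-chloride carrier that regulates volume, by 0.67. Slc9a8, a sodium-proton exchanger of the Golgi, rose by 0.54. Among those that fell, Slc4a11, a carrier known for its role in the corneal endothelium, read 5.99 to 9.22 FPKM at day 2 and 1.59 to 2.81 at day 4 (-1.33, SE 0.17, limma adjusted p = 0.00127). Slc26a10, listed among anion exchangers, read 6.57 to 12.7 and then 2.65 to 4.98 (-1.12). Of the beta subunits of the sodium pump, which builds the sodium gradient many carriers use, Atp1b3 rose (0.51) and Atp1b2 fell (-0.58).

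Among the 12 carriers of vitamins, choline and nucleosides 3 rose and 3 fell, and among the 13 of lipids and organic ions 2 rose and 2 fell. Slc29a1, the equilibrative nucleoside carrier ENT1, read 81.8 and 107 FPKM (WT) and 61.9 and 100.1 (58 kb KO) at day 2 and 36.9, 33.01, 38.3 and 49.2 at day 4 (-1.12, SE 0.17, limma adjusted p = 0.00228). Entries on the other strand lie within its span, one of them at a mean of 33.8 FPKM. Slc29a4, a carrier of monoamines and adenosine, passed at -0.78 (limma adjusted p = 0.0177) but not without WT-1 at day 2 (0.0508), WT-2 at day 2 (0.0600), KO-j at day 2 (0.0533) or WT-1 at day 4 (0.0627). The choline carriers Slc44a3, which entered the set through its day 4 level, and Slc44a1 rose by 1.04 and 0.51. Slc27a2, a fatty acid carrier with acyl-CoA synthetase activity that entered the set through its day 2 level, fell, with 2.36 to 3.70 FPKM at day 2 and 0.937 to 1.43 at day 4 (-0.92). Of the 9 members that carry nucleotide sugars and related molecules into the secretory pathway, 3 rose, among them the UDP-galactose carrier Slc35a2 (0.58), and 0 fell. None of the 5 members that only share the name passed, with differences from -0.15 to 0.35.

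**Figure D3:**
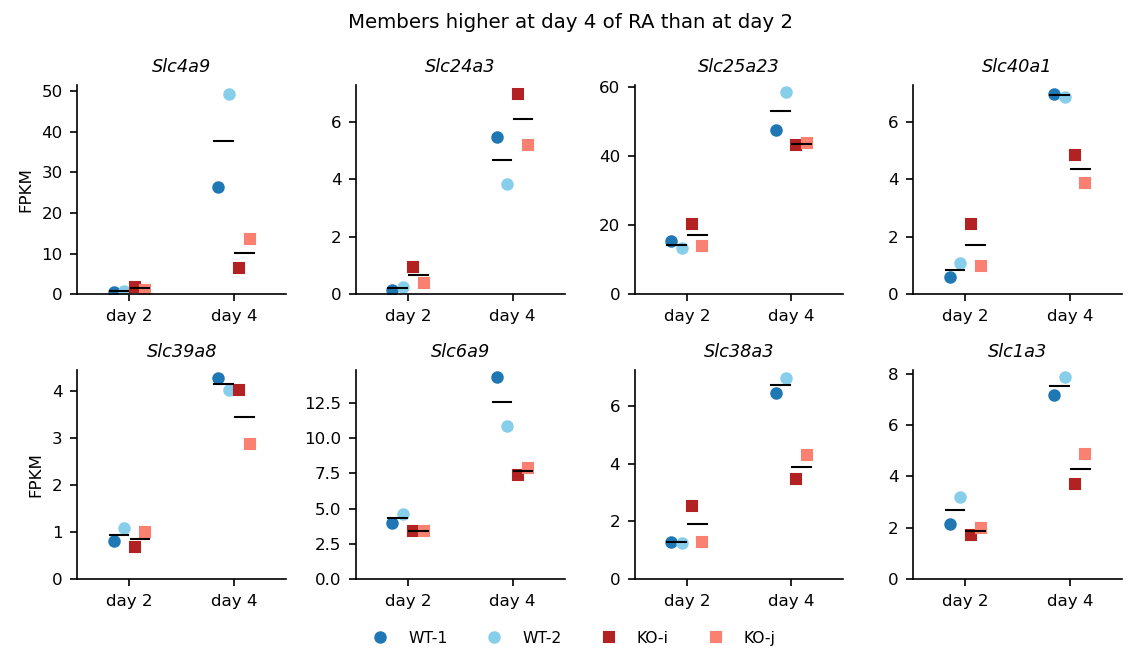
FPKM (y axis) of 8 members at days 2 and 4 of RA (x axis), with circles for WT-1 and WT-2, squares for KO-i and KO-j, and black bars for the means of 2 libraries. In Slc4a9, Slc25a23, Slc6a9, Slc38a3, Slc1a3 and Slc40a1 both squares lie below both circles at day 4, and Slc39a8 and Slc24a3 show no such order.

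Within WT alone, 39 members rose (23.5%) and 19 fell (11.4%), beside 14.4% and 10.9% of all genes tested and 15.8% and 10.9% of those with a mean of at least 2 FPKM. Within 58 kb KO, 26 rose (15.7%) and 13 fell (7.83%), beside 10.0% and 7.81% of all genes and 11.5% and 7.98% of those with a mean of at least 2 FPKM. In both genotypes 33 members passed, all in the same direction in each. This overlap was not counted over all genes, so nothing particular to the members can be read from it. Slc2a1 measured -3.01 in WT and -2.49 in 58 kb KO, Slc1a5 -2.02 and -1.91, and Slc24a3 2.21 and 2.09. These counts rest on 2 libraries a group, and the counts over all genes changed too when libraries were left out. The WT count was 29, 28, 31 and 28 without WT-1 or WT-2 at day 2 and WT-1 or WT-2 at day 4. The knockout count was 15 without KO-j at day 2 and 17 without KO-i at day 4.

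The comparison of genotypes asks whether loss of the Haunt locus changed the members. No member passed for 58 kb KO against WT at day 2 or at day 4 (limma, 0 of 166 each), beside 0.0255% and 0 of all genes tested. With an unadjusted p under 0.05 there were 14 members (8.43%) at day 2 and 35 (21.1%) at day 4, beside 5.11% and 14.4% of all genes and 5.32% and 15.3% of genes with a mean of at least 2 FPKM. The values that follow belong to the members with the smallest unadjusted p and are no calls. With 2 libraries a group the fit has 4 residual degrees of freedom, and a missed threshold does not show that values are alike.

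At day 4 the members with the smallest p among those lower in 58 kb KO were Slc4a9, Slc44a3, Slc6a9, Slc16a3 and Slc1a3. Slc4a9 had -1.82 (SE 0.38, limma adjusted p = 0.17), with 6.61 and 13.6 FPKM in the knockout against 26.4 and 49.2 in WT. Slc44a3 read 3.11 and 3.65 against 7.40 and 5.68 (-0.78, limma adjusted p = 0.17), and Slc6a9 and Slc1a3 had -0.64 and -0.70. All of these but Slc16a3 were among the members that rose from day 2. The summed extraembryonic endoderm markers of the same libraries were 533 and 554 FPKM in 58 kb KO against 995 and 1009 in WT. Of that list, the visceral endoderm gene Ttr read 1.53 and 1.70 (58 kb KO) against 7.05 and 8.96 (WT), and Apoa1 0.693 and 0.634 against 8.69 and 23.2. Both were the extremes of the list. Sox17 had a difference of only -0.07, and Amn went the other way, with 1.32 and 0.775 (58 kb KO) against 0.604 and 0.339 (WT). The summed trophoblast markers, mostly Krt8 and Krt18 of simple epithelia, stood at 78.3 and 122 FPKM against 200.0 and 319, while Elf5 was at most 0.128 and Hand1 at most 0.185 in these libraries. The part of these markers in the members' values was not tested.

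Slc16a3 was lower in the knockout at both days, with -0.88 at day 2 (SE 0.18, limma adjusted p = 0.55) and -0.64 at day 4 (limma adjusted p = 0.21), and no overlap between genotypes at either. At day 2 it was followed by Slc38a4 (-0.33), a carrier of neutral amino acids encoded by an imprinted gene, Slc25a1 (-0.31), Slc5a2 (-0.39) and Slc6a6 (-0.41). Slc2a1 had -0.46 at day 2, where KO-i was lowest at 578 FPKM and KO-j at 798 lay close to WT-2 at 823, and 0.06 at day 4. Slc6a6 lies on chromosome 6, where the 405 genes measured had a median shift from WT of 0.09 (day 2) and 0.06 (day 4) in KO-i and of 0.20 and 0.15 in KO-j. The 5 members of that chromosome had medians of -0.19 and -0.26 in KO-i and of 0.25 and -0.0027 in KO-j. The part of these shifts in the value of Slc6a6 was not tested.

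Among those higher in the knockout at day 4 with the smallest p were Slc25a12, Slc17a7, Slc25a35 and Slc12a9. Slc25a12 read 16.5 and 14.8 FPKM in 58 kb KO against 10.3 and 9.08 in WT (0.64, SE 0.13, limma adjusted p = 0.16), with no such gap at day 2 (-0.05). Slc17a7, the vesicular glutamate carrier of neurons, read 6.45 and 4.81 against 2.17 and 1.17 (1.33, limma adjusted p = 0.17). At day 2 the smallest p among higher members were those of Slc4a2 (0.74), Slc30a1 (0.41), Slc27a3 (0.49), Slc35a2 (0.36) and Slc12a9 (0.30). Slc30a1 lies on chromosome 1, where the median shift of 507 genes in KO-i was 0.31 (day 2) and 0.29 (day 4). The 8 members of that chromosome had medians of 0.32 and 0.26 in KO-i and 0.10 and 0.08 in KO-j, and Slc30a1 was above both WT libraries in both. The part of this shift in their values was not tested.

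**Figure D4:**
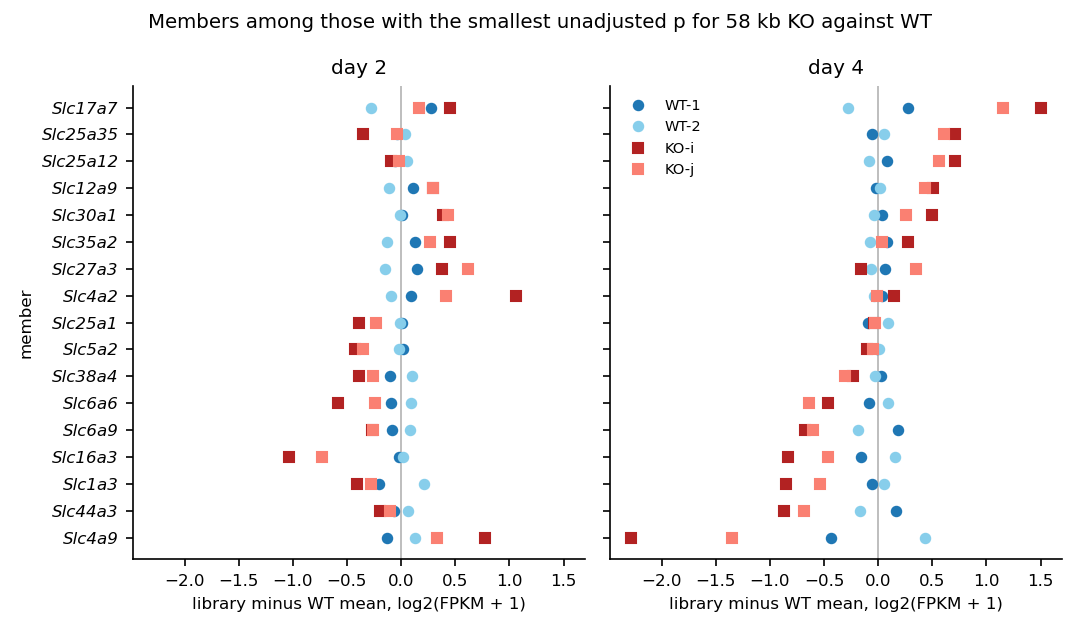
Members among those with the smallest unadjusted p for 58 kb KO against WT at either day (y axis), each library shown as its log2(FPKM + 1) minus the mean of the WT libraries of that day (x axis), at day 2 (left) and day 4 (right). Circles are WT and squares 58 kb KO, and Slc4a9 at day 4 has the widest gap, -1.82 in the fit, which did not pass the adjusted threshold.

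The day effect was also compared between the genotypes. No member passed for the difference of day effects (limma, 0 of 166; 11 members, 6.63%, at an unadjusted p under 0.05, beside 5.56% of all genes and 5.55% of those with a mean of at least 2 FPKM). Slc4a9 rose by 4.43 in WT and 2.06 in 58 kb KO, a difference of -2.37 (SE 0.53, limma adjusted p = 0.71). In Slc44a1, Slc38a3 and Slc40a1 the values were -0.84, -0.98 and -1.08, none of them past the threshold. Slc25a27, an uncoupling protein of neurons, had -0.60. In the other direction stood Slc25a12 (0.69), Slc25a35 (0.85), Slc41a1 (0.70), a magnesium carrier on chromosome 1, Slc25a25 (0.46) and Slc17a7 (1.02). One member chosen after its values were seen stood apart by library name and not by genotype: Slc25a31, the adenine nucleotide carrier known from testis, read 7.40 (day 2) and 8.96 FPKM (day 4) in KO-i and 1.68 to 2.99 in the other 6 libraries.

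In the LIF and lineage table, the members were described without a test, since its columns are authors' means or single libraries. ME, NPC and NSC are single 129/Ola libraries set against a day 0 mean over other lines, so line and cell type cannot be told apart in any of these differences. Levels are compared within that table only, as the tables were normalized separately and made with different kits. Of the 166 members 141 reached 1 FPKM in 2 or more of its 7 columns. Counted as past 1 log2 unit from day 0 on the log2(FPKM + 1) scale, 11 members were higher at day 6 (7.80%) and 12 lower (8.51%), beside 12.4% and 6.29% of the 12510 genes measured. In ME 13 were higher (9.22%) and 10 lower (7.09%), beside 9.71% and 10.0%, and in NPC 16 (11.3%) and 19 (13.5%), beside 14.8% and 11.3%. In NSC 30 were higher (21.3%) and 24 lower (17.0%), beside 19.9% and 16.5%. The shares of members were not tested against those of all genes, so nothing particular to the members is read from them.

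At 6 days after LIF withdrawal the glucose carriers Slc2a1 and Slc2a3 stood above day 0, whereas both fell from day 2 to day 4 of RA. Slc2a1 read 128, 129, 155 and 279.6 FPKM at days 0, 2, 4 and 6, and Slc2a3 207, 165, 277 and 318. Both were highest at day 6, and Slc16a3 went from 17.8 to 36.7. The largest differences at day 6 were those of Slc25a24, from 1.85 to 21.7 FPKM, Slc39a8, from 0.667 to 5.65, Slc4a2, from 3.04 to 11.5, and Slc38a4, from 25.9 to 70.5. Lower at day 6 were Slc27a2 (11.9 to 1.68, after 37.2 at day 2), Slc7a3 (15.5 to 2.46), a carrier of arginine and lysine, Slc29a1 (24.7 to 6.73) and Slc39a14 (11.2 to 2.87). Slc25a24, Slc39a8 and Slc4a2 also rose in RA, and Slc27a2, Slc29a1 and Slc39a14 also fell there. For Slc39a8 and Slc27a2 the direction in RA was built into their choice. The columns differ in their mixture of lines. At day 6 the trophoblast markers summed to 3209.8 FPKM against 292 at day 0, mostly Krt8 (1619) and Krt18 (1271) of simple epithelia. Of that list Hand1 (3.84 to 268), Krt7 and Cdx2 were also higher at day 6. Tfap2c (39.3 to 8.69) and Elf5, near 0 at both days, were lower. The part of these markers in the members' differences was not tested.

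In ME, Slc6a6, the taurine carrier, stood at 49.5 FPKM against 13.4 at day 0. Slc39a8 (3.65 against 0.667) and Slc7a6 (12.6 against 4.06) were also among the members with the largest differences. Lower in ME were Slc7a3 (2.59 against 15.5) and 3 mitochondrial carriers, Slc25a12 (2.16 against 13.4), the carnitine carrier Slc25a20 (3.11 against 17.2) and Slc25a36 (2.31 against 10.1), a pyrimidine nucleotide carrier. Those 3 were also lower at days 2, 4 and 6 than at day 0, so a level below day 0 was not particular to ME.

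In NPC the largest differences were those of Slc22a23, an orphan of the organic ion carriers (5.16 FPKM against 0.402 at day 0), the zinc importer Slc39a6 (22.0 against 4.97), Slc22a17, a receptor for lipocalin-bound iron (6.57 against 1.42), and Slc25a23 (7.74 against 1.97). Slc27a2, Slc38a4, Slc29a1 and Slc7a7 were the lowest relative to day 0, with Slc38a4 at 4.09 against 25.9 FPKM. Slc2a1 and Slc2a3 stood at 129 and 128 in NPC, Slc2a1 close to its 128 at day 0.

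NSC differed most. Slc1a3, a known marker of radial glia and astrocytes, read 183 FPKM there and 2.55 to 5.98 in the other 6 columns. Slc12a2, the sodium-potassium-chloride carrier NKCC1, read 97.0 against 5.92 to 8.20, and the fatty acid carrier Slc27a1 28.8 against 1.35 to 2.09. Slc2a3 read 1.48 FPKM in NSC and 96.2 to 318 elsewhere, Slc16a3 was listed at 0, and Slc2a1 stood at 13.3, the lowest of the 7 columns. Slc38a4 (0.0944) and Slc7a3 (0.0409) were near 0 there as well. Of the 9 glycolytic and lactate genes found, 6 read lower in NSC than at day 0, among them Ldha (275 against 561 FPKM) and Pkm (429 against 1057). The other 3 read higher, Hk1 (25.1 against 13.9), Gpi1 (140.5 against 119) and Ldhb (149.7 against 111). Slc1a3, Slc25a23 (18.0 in NSC against 1.97 at day 0) and Slc38a3 (11.5 in NSC against 0.647 at day 0) were thus high in the NSC library and rose between days 2 and 4 of RA, while Slc12a2 and Slc27a1 did not pass in RA (0.26 and 0.12). For Slc38a3 the rise in RA was built into its choice. The NSC column is 1 library of cells cultured in growth factors to passage 15, so culture, line and cell type cannot be told apart in it.

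**Figure D5:**
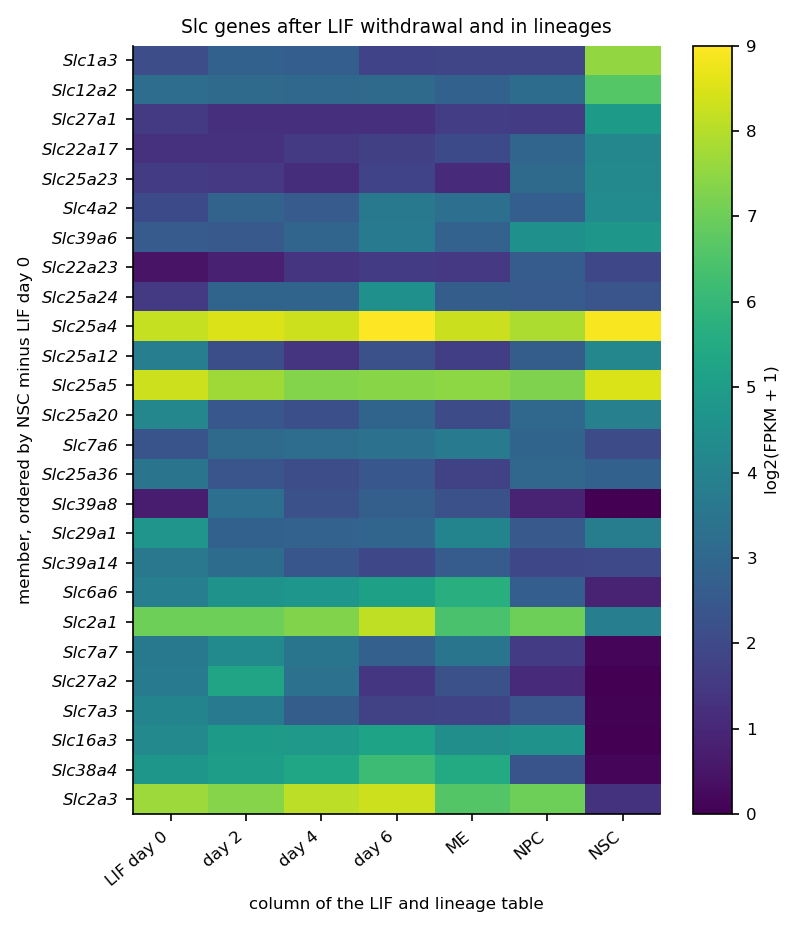
Levels as log2(FPKM + 1) (colour) of members among those with the largest differences from LIF day 0, with Slc2a1, Slc25a4 and Slc25a5 added, in the 7 columns of the LIF and lineage table (x axis), ordered by NSC minus day 0 (y axis). Slc1a3 at the top reads 183 FPKM in NSC against 3.34 at day 0, and Slc2a3 at the bottom 1.48 against 207.

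Direct repeats of AGGTCA, the hexamer that RA receptors bind in pairs, spaced by 5 or 2 bases were searched in the same promoter windows on both strands. Spaced by 5 they were found in 3 of 27025 genes (0.0111%), and spaced by 2 in 2 (0.0074%), with no member among either. No match says only that these exact letters are not in the 300-base window.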

How the data were processed

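Expression values are FPKM as deposited by the authors in 2 tables, a unit no header states and that was read off the values. MACS 1.4.2, TopHat2 2.0.11, Bowtie 1.0.0, CASAVA and mm9 are listed, without roles, in the submitters' processing notes. The program that made the values, and whether strand was used in counting, are not given in the sources used here. Per the labels' protocols, LIF libraries were stranded, and no strand-marking step is named for RA libraries. Listed starts count from 0 and are printed from 1. An exact 0 may be a failed estimate. The tables cover 20 of the 54 samples, and the others were not used here. Of the LIF entries, 11 whose symbol occurs more than once were dropped.

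Members are entries named Slc, a number, a and a number, with a mean of at least 2 FPKM over the 8 RA libraries. The members and lists were chosen with earlier results of these data known. log2(FPKM + 1) of 15705 genes was fitted with limma 3.58.1 in R 4.3.3 to the 4 groups with an intensity trend, and p-values were adjusted over all genes. Contrasts were day 4 against day 2 (mean of genotypes and each genotype), 58 kb KO against WT at each day, and their difference. The fit was checked on simulated data. Named are the 12 highest members, the 12 called with the largest day effect in each direction, the 5 with the smallest p in each direction for each genotype contrast, the 4 with the largest difference in each direction in day 6, ME, NPC and NSC, 13 well-known members, and the 3 on each side of the limit. Other members are examples of their class, picked after their values were seen. Some members and listed genes that the rule names are not reported here. Promoter windows come from RefSeq GRCm38.p6. Alternatives were other pseudocounts, filters and scalings, no trend, a replicate block, and leaving out libraries.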

Additional observations from a re-analysis of the deposited data

How the results depend on the processing

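The fall or rise of all 76 called members kept its direction in each of 16 other settings, and of the 24 named for their day effect all but Slc29a4 kept their call wherever they were tested. The count of 76 was 62 to 76 without 1 library at a time (in which the lone library left in a group is assumed to vary like the others) and 89 with a replicate block. The blocked counts were 66 for WT, 53 for 58 kb KO and 0 for the genotype contrasts. Over all genes the blocked counts were 4783 for WT and 3705 for 58 kb KO, beside 3973 and 2802 in the main fit. Counts over all genes also changed in the fits that left out libraries, so changed counts are not particular to the members. The labels do not say that a name marks a pair, and deviations of libraries of 1 name correlated at 0.0849 (WT) and 0.260 (KO), so the block is given here only. In WT, 58 members were called, and 28 to 63 without 1 library. In 58 kb KO, 39 were called, 15 to 32 without 1 library (15 without KO-j at day 2 and 17 without KO-i at day 4), and 23 without the filter on low values, which tests 27709 genes. Added after seeing the data, fits without both libraries of 1 name gave 32 (without WT-1) and 31 (without WT-2) for the mean, 0 for WT without either WT name, and for 58 kb KO 9, 8, 5 and 5 without KO-i, KO-j, WT-1 and WT-2. The genotype contrasts had 0 called members in each fit.

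In the LIF table, 23, 23, 35 and 54 members were past 1 log2 unit at day 6, in ME, NPC and NSC. With a pseudocount of 0.1 there were 35 at day 6 and 39 in ME. With a difference of at least 2 there were 3, 4, 6 and 23, and among genes with a mean of at least 5 FPKM 15 in ME, 18 in NPC and 29 in NSC. Some differences near 0 that did not pass changed sign. Centred on chromosomes, Slc25a3 had -0.00649 and Slc7a5 -0.00942. Without 1 library, Slc25a3 had -0.013 (KO-j at day 4), Slc6a6 0.031 to 0.073 (0.0337 and 0.0328 between them) and Slc7a5 -0.064 to -0.046. Without both libraries of a name, Slc25a25 had 0.00935, Slc6a6 0.12 and Slc25a3 -0.00789 without KO-j, Slc25a3 -0.015, Slc25a36 -0.00549 and Slc7a5 -0.067 without WT-1, and Slc7a5 -0.071 without KO-i. In Slc27a3 and Slc25a12 the call was lost under quantile normalization and chromosome centring, to adjusted p of 0.0565 and 0.122, and 0.0678 and 0.0768, and that of Slc25a12 also with the replicate block (0.0517). Without the filter on low values the limma adjusted p of Slc27a3 was 0.0698. The call of Slc27a3 was also lost in fits without 1 library, such as those without WT-2 at day 2 (a difference of 0.38) or KO-j at day 4 (0.33).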
